A study of Mus musculus with 8 samples.

Results

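The 63 genes described here are the collagens and laminins of the mouse, named by symbols that begin with Col, a number, a and a further number, or that consist of Lama, Lamb or Lamc and a number, together with Fmod, Omd, Ogn, Lum, Dcn, Mgp and Aldh1a2. They were chosen by name from 17654 genes matched between the deposited tables. Of these 63, 62 are genes of the extracellular matrix or of the leptomeninges. Col4a3bp encodes a ceramide transfer protein that the pattern takes by its spelling only, and it stands apart below. A mean of at least 1 scaled FPKM over all libraries was reached by 29 members, the 29 that were tested, and by 12943 genes in all. FPKM is a level that accounts for transcript length and library size, and scaled means divided by a factor per library that brings the typical gene to the same level in all libraries.

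Collagens are triple helices that form fibrils, the network of basement membranes or finer filaments, and laminins are trimers of an alpha, a beta and a gamma chain that start the assembly of a basement membrane. In brain, fibrillar collagens and small leucine-rich proteoglycans are found mainly in the leptomeninges and around vessels, where fibroblasts make them. Basement membrane collagen and laminin lie beneath endothelium and the end feet of astrocytes.

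The study sequenced total RNA of hippocampus from C57BL/6 mice to ask about the kinase Pyk2, encoded by Ptk2b, in contextual fear memory. There were 8 libraries in 4 groups of 2: Pyk2 knockouts made with CRISPR (KO), CRISPR mice whose Pyk2 carries Y402F, a change of its autophosphorylation site (Y402F), wild-type controls of the knockout line (KO controls) and wild-type controls of the Y402F line (Y402F controls). Age, sex, the edited stretch of Ptk2b and the number of founder lines were not given in the sources used here. No label says whether a library is 1 animal, so p-values here cover the spread of these libraries alone, and that spread may be technical.

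The mutant tables held 5756180 to 6017220 expected counts per library, and the control tables held FPKM only, so the depth of the controls is unknown. The kind of table and the genotype cannot be told apart when mutants are set against controls, since the split between table layouts is the split between mutant and wild type. Ptk2b was at 56.1 and 68.7 scaled FPKM in KO and at 308 to 396 in the other libraries. Xist and the Y-linked Ddx3y put KO replicate 1, Y402F replicate 1 and both KO controls on the female side and the other 4 libraries on the male side. For the KO controls this assignment is weak. A list of 5 sex genes, these 2 included, summed to 4.02 and 4.29 there, against 25.6 in KO replicate 1 and 40.4 in Y402F replicate 1. None of the 5 was at 0 in KO control replicate 2. Ddx3y itself was low, with means of 0.0694 in KO controls and 5.28 in Y402F controls. Whether a KO control library mixes the sexes was not tested. Transthyretin (Ttr), a defining gene of choroid plexus epithelium, reached 656 in the second Y402F library, while its level was 1015 and 1032 in Y402F controls; the remaining 5 libraries had 1.19 to 10.2. Of 20 leptomeningeal markers that are no members, 19 were matched and 13 tested, and the 19 summed to 283 and 481 scaled FPKM in KO, 404 and 663 in Y402F, 1016 and 1012 in KO controls and 645 and 638 in Y402F controls. The prostaglandin synthase gene Ptgds alone had group means of 321, 454, 904 and 541 in this order. The sums thus mostly follow 1 gene. Defining markers of the list, the transporters Slc6a13 and Slc13a4, were above 0 in every library. Their group means were 2.68, 2.57, 3.15 and 2.38 for Slc6a13 and 1.35, 3.31, 3.98 and 4.21 for Slc13a4. Up to 2 of the 19 markers were at 0 in a library. Fewer cells of a type and less RNA per cell cannot be told apart in such tissue RNA.

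Of the members, 5 had a mean of at least 10 scaled FPKM: Dcn at 33.5, Mgp at 26.6, Col4a3bp at 16.8, Col25a1 at 10.8 and Omd at 10.4. The lowest tested member was Col6a2 at 1.04, and the highest of the 34 below the limit was Lama5 at 0.972. At the other end, 7 members had a mean under 0.1, and 6 were at 0 in a mutant library. Col24a1, a minor fibrillar collagen, had the lowest mean, 0.00893.

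Promoter sequences are shown for 3 members: Omd, Col8a1 and Ogn. Among the tested members, Omd and Col8a1 had the mutant levels that were the most times above the controls. Ogn lies next to Omd on chromosome 13 and had similar levels in all groups. Each is the stretch of 250 bases before the RefSeq start on GRCm38.p6, 5′ to 3′ on the strand of the gene, in lower case. Capitals mark the TATA box TATAAA, the CCAAT box CCAAT or the GC box GGGCGG, searched on both strands.
Omd, chr13:49582212-49582461, plus strand: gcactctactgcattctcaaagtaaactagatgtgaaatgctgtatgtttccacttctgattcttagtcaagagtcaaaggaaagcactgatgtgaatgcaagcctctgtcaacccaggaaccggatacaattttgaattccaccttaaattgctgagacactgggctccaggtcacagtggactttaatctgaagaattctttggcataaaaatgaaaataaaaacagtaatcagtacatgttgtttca
Ogn, chr13:49607765-49608014, plus strand: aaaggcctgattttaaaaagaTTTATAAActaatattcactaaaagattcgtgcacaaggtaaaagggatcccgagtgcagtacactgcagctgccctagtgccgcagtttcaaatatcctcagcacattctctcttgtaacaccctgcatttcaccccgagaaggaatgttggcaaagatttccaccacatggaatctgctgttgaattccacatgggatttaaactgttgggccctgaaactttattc
Col8a1, chr16:57754738-57754987, minus strand: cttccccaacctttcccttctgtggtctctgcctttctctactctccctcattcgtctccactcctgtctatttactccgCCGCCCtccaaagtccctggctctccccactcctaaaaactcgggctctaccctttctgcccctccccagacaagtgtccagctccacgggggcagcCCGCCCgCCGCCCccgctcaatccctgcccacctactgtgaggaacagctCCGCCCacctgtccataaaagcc
The window of Omd holds none of these words, 1 CpG and 38.4% G or C. That of Ogn holds the TATA box on both strands in overlapping letters, 4 CpG and 42.0% G or C. Col8a1 has 4 GC boxes, 10 CpG and 60.8% G or C. Over 32851 RefSeq windows of the same length, 12.4% held the TATA box, 33.8% the CCAAT box and 32.7% the GC box. Over 48 windows of 44 members, the shares were 12.5%, 31.2% and 50%.

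The small leucine-rich proteoglycans bind collagen fibrils and limit their width, and all 5 listed here were tested. Their levels ran in different directions. Fmod (fibromodulin; chromosome 1, 134037254 to 134048277 on GRCm38, as for all positions of genes) was at 0.828 and 1.74 scaled FPKM in KO, 3.56 and 6.98 in Y402F, 5.19 and 4.10 in KO controls and 3.58 and 2.79 in Y402F controls. Both KO libraries lay below all 6 others. In expected counts these were 13 and 28 in KO against 56 and 114 in Y402F, so counting error is large in KO.

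Omd (osteomodulin, a keratan sulfate proteoglycan best known from bone; chromosome 13, 49582462 to 49592822) was at 22.1 and 27.5 in KO, 13.8 and 19.3 in Y402F, 0.196 and 0.295 in KO controls and 0.0978 and 0.292 in Y402F controls. Every mutant library was far above every control library, and KO also lay above Y402F. The lower confidence bound of the authors' FPKM was at 0 in all 4 control libraries, and the upper bound reached 0.405 to 0.710. Ogn (osteoglycin; chromosome 13, 49608046 to 49624501) was at 1.36 and 1.12 in KO, 1.94 and 1.45 in Y402F, 1.91 and 1.35 in KO controls and 1.34 and 1.61 in Y402F controls. It thus stayed within a range of 1.12 to 1.94, although it begins downstream of Omd on the same strand.

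Lum (lumican) was at 1.58 and 1.46 in KO, 0.879 and 1.27 in Y402F, 1.36 and 1.42 in KO controls and 1.24 and 1.64 in Y402F controls. Dcn (decorin, which also binds growth factors of the TGF-beta family) was the most abundant member, at 25.3 and 14.5 in KO, 23.3 and 30.5 in Y402F, 32.3 and 32.2 in KO controls and 52.2 and 57.8 in Y402F controls. The Y402F controls were highest for Dcn, and both mutants lay below both control pairs.

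Mgp, the matrix Gla protein that inhibits calcification, was at 16.8 and 14.6 in KO, 25.4 and 28.4 in Y402F, 42.0 and 35.7 in KO controls and 24.0 and 26.1 in Y402F controls. KO was lowest, KO controls were highest, and the other 4 libraries lay between them. Aldh1a2, the enzyme of leptomeningeal cells that makes retinoic acid, was at 0.964 and 2.6 in KO, 1.12 and 2.95 in Y402F, 2.96 and 2.97 in KO controls and 1.60 and 1.53 in Y402F controls. In the mutants its replicate 2 was 2.70 and 2.63 times replicate 1, and in the control pairs 1.00 and 0.954 times.

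**Figure D1:**
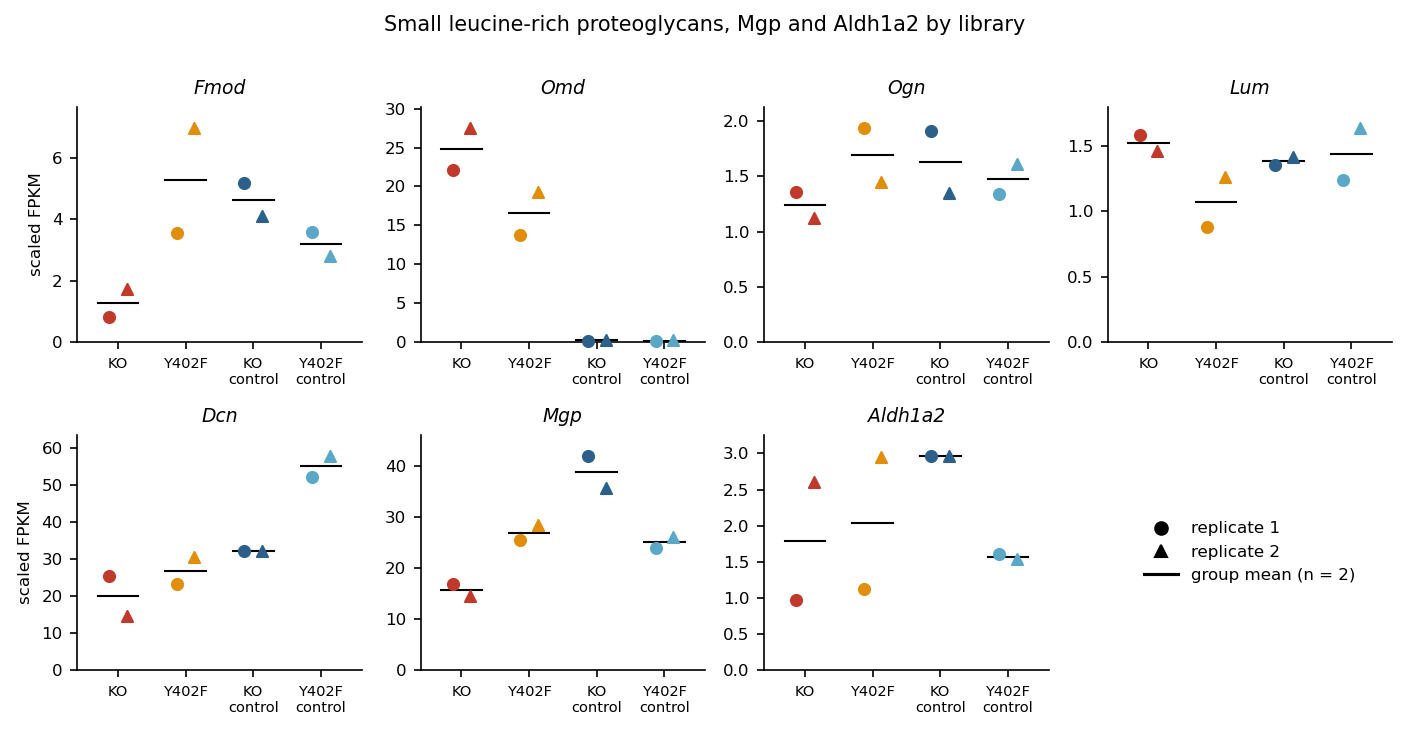
Level of the small leucine-rich proteoglycans, Mgp and Aldh1a2 in each of the 8 libraries (y axis, scaled FPKM from 0; x axis, group; circle, replicate 1; triangle, replicate 2; line, mean of 2). Fmod was lowest in KO, Omd was near 0 in the 4 control libraries, and the mutant replicates of Aldh1a2 lay apart.

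Network collagens form the sheet of basement membranes, and 3 of 9 were tested. Col4a1, a chain of the ubiquitous vascular type IV trimer, was at 4.59 and 4.97 in KO, 5.10 and 4.16 in Y402F, 7.94 and 6.12 in KO controls and 7.92 and 9.55 in Y402F controls. Col4a2, its partner in the trimer, was at 5.39 and 5.19 in KO, 5.08 and 4.98 in Y402F, 3.93 and 3.21 in KO controls and 3.73 and 3.09 in Y402F controls. The mutants were thus below all controls for Col4a1 and above them for its partner Col4a2. The genes lie head to head and share 22 exonic bases of opposite strands in GENCODE. Col8a1, a short-chain collagen of vessel walls and of Descemet membrane of the eye, was at 3.72 and 2.78 in KO, 4.29 and 3.18 in Y402F, 0.162 and 0.135 in KO controls and 0.432 and 0.643 in Y402F controls. Its mutant libraries were all above its control libraries, as for Omd.

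Laminin alpha chains carry the sites that bind cell receptors, and Lama2 and Lama4 were tested of 5. Lama2, the chain of muscle and of glial and vascular basement membranes, was at 1.33 and 1.55 in KO, 1.63 and 1.21 in Y402F, 1.78 and 2.76 in KO controls and 1.49 and 1.77 in Y402F controls. Lama4, the endothelial chain, was at 1.19 and 1.08 in KO, 0.805 and 1.15 in Y402F, 1.88 and 1.78 in KO controls and 1.28 and 2.98 in Y402F controls. For Lama4 both mutants lay below all 4 control libraries. Lama5, the broadly expressed chain, was at 0.849 and 0.923 in KO, 0.815 and 0.761 in Y402F, 0.747 and 1.51 in KO controls and 0.745 and 1.43 in Y402F controls. It was not tested.

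The beta chains stood in opposite orders. Lamb1 was at 5.28 and 5.89 in KO, 5.62 and 6.23 in Y402F, 2.64 and 2.91 in KO controls and 4.08 and 4.62 in Y402F controls. Lamb2, a beta chain known from the neuromuscular synapse, was at 3.66 and 3.74 in KO, 3.11 and 4.83 in Y402F, 8.17 and 11.1 in KO controls and 7.50 and 9.74 in Y402F controls. Lamb1 was higher in every mutant than in any control library, and Lamb2 was lower. Lamb3, a chain of epithelial basement membranes, was at 0.136 and 0.265 in KO, 0.138 and 0.349 in Y402F, 0.174 and 0.935 in KO controls and 0.222 and 0.141 in Y402F controls. It was not tested, and 1 library of the KO controls stood apart at 0.935.

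Lamc1, the gamma chain of most laminins, was at 4.47 and 6.14 in KO, 5.67 and 5.57 in Y402F, 5.11 and 5.32 in KO controls and 12.2 and 7.81 in Y402F controls. The Y402F controls stood above the other 6 libraries, with replicate 2 at 0.640 times replicate 1. Lamc3, a chain of brain and vessel basement membranes, was at 0.671 and 0.955 in KO, 1.12 and 0.761 in Y402F, 0.679 and 0.633 in KO controls and 0.960 and 0.622 in Y402F controls. It had a mean under 1 and was not tested.

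**Figure D2:**
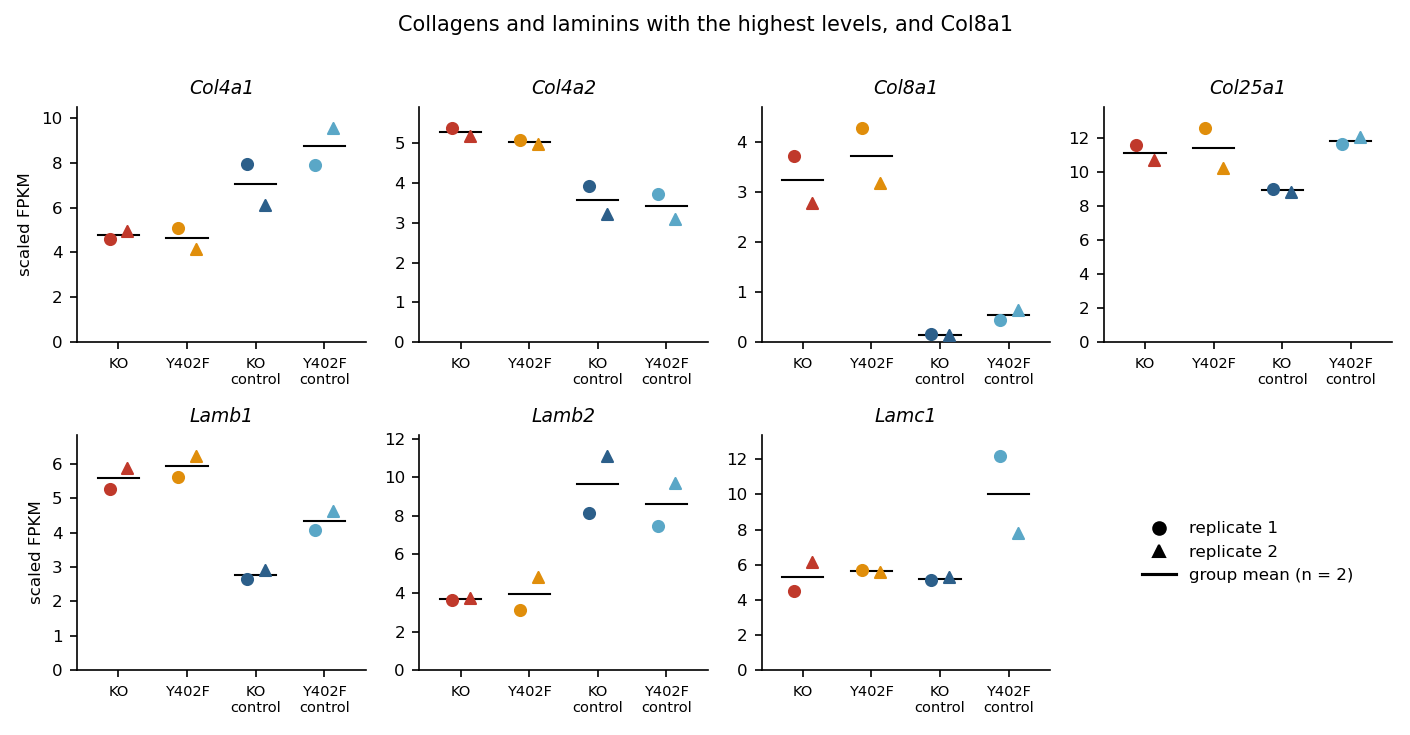
Level of 4 collagens and 3 laminins in each of the 8 libraries (y axis, scaled FPKM from 0; x axis, group; circle, replicate 1; triangle, replicate 2; line, mean of 2). Col4a1 and Lamb2 were lower in the mutant libraries than in the controls, Col4a2, Col8a1 and Lamb1 were higher, and Lamc1 was highest in the Y402F controls.

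Fibrillar collagens, the tensile fibrils of the leptomeninges and of the outer wall of vessels, were low, and 3 of 11 were tested. Col1a1 was at 1.27 and 1.76 in KO, 1.04 and 1.96 in Y402F, 1.60 and 1.14 in KO controls and 1.15 and 2.89 in Y402F controls. Col1a2, its partner in type I collagen, was at 0.671 and 1.78 in KO, 1.76 and 2.30 in Y402F, 2.65 and 2.44 in KO controls and 1.64 and 2.11 in Y402F controls. The Col1a1 libraries of the Y402F controls differed 2.5-fold, and its groups overlapped. Col11a2 was at 1.83 and 2.83 in KO, 2.13 and 1.83 in Y402F, 2.09 and 3.95 in KO controls and 4.18 and 2.69 in Y402F controls. Col3a1, the remaining collagen of leptomeningeal fibrils, had a mean of 0.902 and was not tested.

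Among the 9 collagens of beaded filaments, of anchoring fibrils and related ones, 3 were tested. Col6a1 was at 1.54 and 1.99 in KO, 1.95 and 2.71 in Y402F, 0.647 and 1.13 in KO controls and 1.70 and 2.23 in Y402F controls. Col6a2, its partner in type VI collagen, was at 0.922 and 0.944 in KO, 0.879 and 1.36 in Y402F, 1.06 and 0.824 in KO controls and 1.16 and 1.14 in Y402F controls. Each mutant overlapped its own controls for Col6a2. Col26a1 was at 0.335 and 1.51 in KO, 0.942 and 0.454 in Y402F, 1.53 and 4.69 in KO controls and 3.68 and 3.18 in Y402F controls, with the mutants below every control. The KO libraries of Col26a1 differed 4.49-fold and the KO controls 3.06-fold.

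The fibril-associated collagens, which sit on the surface of fibrils, gave 3 tested members of 9. Col9a3 was at 2.75 and 2.25 in KO, 2.42 and 3.07 in Y402F, 2.01 and 4.44 in KO controls and 4.37 and 4.14 in Y402F controls. Col9a2 was at 1.39 and 1.04 in KO, 1.06 and 0.761 in Y402F, 1.69 and 1.91 in KO controls and 0.942 and 2.39 in Y402F controls. Col16a1 was at 0.618 and 0.913 in KO, 1.04 and 1.20 in Y402F, 1.43 and 1.02 in KO controls and 1.25 and 1.5 in Y402F controls. Neither separated all mutant from all control libraries. The 2 multiplexins, whose C-terminal fragments include endostatin, were both tested. Col15a1 was at 1.05 and 0.859 in KO, 1.11 and 0.845 in Y402F, 3.52 and 1.64 in KO controls and 1.78 and 1.81 in Y402F controls, with the mutants below every control. Col18a1 was at 0.681 and 0.732 in KO, 1.18 and 1.07 in Y402F, 1.80 and 1.5 in KO controls and 1.26 and 0.556 in Y402F controls.

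Transmembrane collagens are made by neurons as well as by other cells. Col25a1, the precursor of a collagen found in amyloid plaques, was the most abundant collagen, at 11.6 and 10.7 in KO, 12.6 and 10.2 in Y402F, 9.01 and 8.83 in KO controls and 11.6 and 12.1 in Y402F controls. KO controls were lowest for Col25a1, below the other 6 libraries. Col23a1 was at 1.25 and 1.09 in KO, 0.889 and 1.93 in Y402F, 3.44 and 3.32 in KO controls and 2.29 and 1.23 in Y402F controls, highest in the KO controls. Col13a1 was at 0.608 and 0.361 in KO, 0.423 and 0.496 in Y402F, 0.462 and 0.516 in KO controls and 1.19 and 0.452 in Y402F controls. It was not tested. Col4a3bp, the lipid transfer gene, ranged from 11.8 to 24.8.

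KO against Y402F compares loss of Pyk2 with loss of its autophosphorylation site in tables of one kind. No member was called at an adjusted p under 0.05 by edgeR's quasi-likelihood test, against 0.00773% of all genes tested, which is Ptk2b alone, and DESeq2 called none either. At an unadjusted p under 0.05 there were 3 members (Fmod, Mgp and Omd) and 247 of 12939 genes. Fmod had the largest difference, with KO at 24.4% of Y402F, a log2 difference of -2.03 (SE 0.38) and an edgeR adjusted p of 0.191. Mgp was at 58.2% of Y402F (-0.78, SE 0.24, edgeR adjusted p = 1) and Omd at 1.5 times it (0.58, SE 0.20, edgeR adjusted p = 1). For each of these 3 genes the libraries did not overlap between the groups. Replicate 1 of both groups had the female pattern and replicate 2 the male pattern. With that pattern as a term, which is the same fit as a replicate block, Fmod was called (-2.04, edgeR adjusted p = 0.0306), and it was lower in KO within each pattern.

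The other 4 genes of the leptomeningeal set had log2 differences of -0.43 for Dcn (SE 0.22), -0.45 for Ogn (SE 0.40), 0.49 for Lum (SE 0.47) and -0.20 for Aldh1a2 (SE 0.49), all with an edgeR adjusted p of 1. The median over the 29 members was -0.09, with 10 above and 19 below 0, and over all genes -0.01. The libraries did not overlap for 8 members, or 27.6%, against 25.7% of all genes. All role groups of collagen and laminin had medians between -0.35 (multiplexins) and 0.12 (laminin alpha chains).

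Without KO replicate 1, KO replicate 2 or Y402F replicate 1, Fmod was called by edgeR (adjusted p = 0.0201, 2.17e-06 and 1.24e-08), with the lone library assumed to vary as the other group; without Y402F replicate 2 it was not (0.919). Beside it, 11 of the 13 tested leptomeningeal markers were lower in KO (median -0.37, none called by edgeR). Those with the smallest p were the sulfate transporter Slc13a4 (-1.29, SE 0.37), Igf2 (-0.62, SE 0.19) and the prostaglandin synthase gene Ptgds (-0.50, SE 0.23), each with an edgeR adjusted p of 1. All 6 tested choroid plexus genes were lower in KO (median -1.60) and all 6 ependymal genes were higher (median 0.81), none called by edgeR. Choroid plexus markers summed to 40.8 and 54.6 scaled FPKM in KO and to 40.3 and 757 in Y402F, where replicate 2 also held the highest Fmod. The part of these tissues in the difference of Fmod was not tested.

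The wild-type pairs differ in line only, as far as the labels say, and their libraries differ in the sex pattern and in choroid plexus genes as well. By limma, 1 of 29 members was called, or 3.45%, against 7.94% of all genes tested (4.81% higher and 3.14% lower). It was Mgp, at 38.8 in KO controls and 25.0 in Y402F controls, 1.55 times as high (log2 difference 0.61, SE 0.13, limma adjusted p = 0.0340). Next in order of p came Lamc1, at 52.1% of the Y402F controls (-0.80, SE 0.22, limma adjusted p = 0.0635), and Dcn, at 58.6% (-0.75, SE 0.23, limma adjusted p = 0.0829). Aldh1a2 was 1.89 times as high in KO controls (0.63, SE 0.36, limma adjusted p = 0.293). Fmod (0.43), Ogn (0.08), Omd (0.06) and Lum (-0.02) had limma adjusted p of 0.404 to 0.961.

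The median over members was -0.09 and over all genes -0.02, and 15 of 29 members did not overlap between the pairs (51.7%, against 59% of all genes). The call of Mgp was lost in 8 of 12 alternatives: without any of the 4 wild-type libraries, with limma adjusted p from 0.0644 to 0.141, with no filter (0.0545), with no trend (0.0701), in a fit of the 4 wild-type libraries alone (0.0837) and with a term for the sex pattern (0.0961). The fit of the wild-type libraries alone called Dcn (limma adjusted p = 0.0464). The sex term called Aldh1a2 (1.51, limma adjusted p = 0.0199), along with Col4a3bp. In the wild-type pairs the sex pattern as assigned, weakly for the KO controls, and the line are the same split. The mutant libraries alone thus set this term. It cannot part sex from line here, and the value of Aldh1a2 takes in the difference between its mutant replicates. Of the 6 tested choroid plexus genes 4 were lower in KO controls. Among these, Kcnj13 and Kcne2 had means of 4.18 and 3.02 in Y402F controls and means below 1 in every other group. They passed the test limit through the Y402F controls, so their being tested already favoured lower KO controls. The summed level of the choroid plexus list was 50.3 and 49.3 in KO controls and 1151 and 1178 in Y402F controls. Higher in KO controls were 4 of 5 blood genes, 3 of 6 microglial genes, 2 of 5 oligodendrocyte genes and, among 10 genes of mural cells, Acta2 (0.76, limma adjusted p = 0.0418). The part of any of these in the difference of Mgp, Dcn or Lamc1 was not tested.

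**Figure D3:**
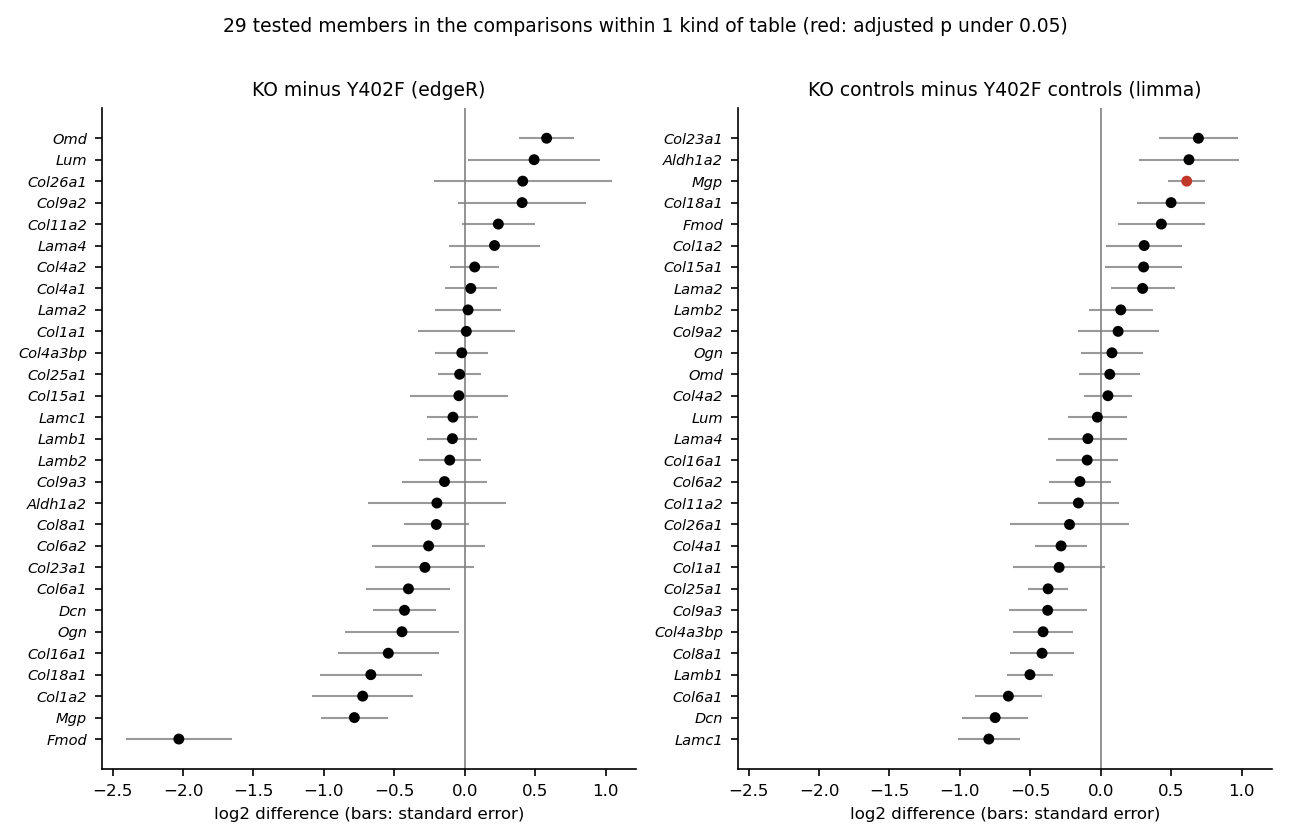
Log2 difference of each of the 29 tested members (points, with bars of 1 standard error) for KO minus Y402F by edgeR on the left and KO controls minus Y402F controls by limma on the right, ordered by size, with calls in red. Fmod stood lowest at -2.03 on the left without a call, and Mgp at 0.61 was the call on the right.

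KO was next compared with KO controls, where genotype and kind of table cannot be told apart. By limma 9 members were called, 3 higher and 6 lower, which is 31% against 37.7% of all genes tested (16.7% higher and 20.9% lower). Higher in KO were Omd, 101 times the controls (log2(scaled FPKM + 1) difference 4.37, SE 0.22, limma adjusted p = 3.32e-06), Col8a1, 21.8 times (1.88, SE 0.23, limma adjusted p = 0.000423), and Lamb1, 2.01 times (0.80, SE 0.16, limma adjusted p = 0.00603). The addition of 1 makes the log2 difference smaller than the ratio of the levels. Omd and Col8a1 reached the test limit through the mutant libraries alone, since every control library lay below 1. The authors' lower confidence bound was at 0 in both KO controls for Omd and for Col8a1 (upper bounds 0.341 and 0.304 for Col8a1), so the size of either ratio is poorly set.

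Lower in KO were Mgp, at 40.4% of its controls (-1.26, SE 0.13, limma adjusted p = 0.000206), Lamb2 at 38.3% (-1.17, SE 0.23, limma adjusted p = 0.00476) and Fmod at 27.7% (-1.33, SE 0.31, limma adjusted p = 0.0107). The remaining calls were Col23a1 at 34.6% (-1.01, SE 0.28, limma adjusted p = 0.0211), Dcn at 61.8% (-0.72, SE 0.23, limma adjusted p = 0.0399) and Col15a1 at 37.0% (-0.82, SE 0.28, limma adjusted p = 0.0450). For Col15a1 the authors' lower confidence bound was at 0 in both KO controls (upper bounds 7.27 and 4.03), so its percentage is poorly set. Of the 5 small leucine-rich proteoglycans 1 rose and 2 fell, and of the 22 tested collagen processing genes 2 rose and 1 fell. The 1 that fell was P4hb, the beta subunit of prolyl hydroxylase (-0.73, SE 0.15, limma adjusted p = 0.00553). Of the 10 tested basement membrane partners Npnt, a ligand of integrins, rose (0.71, limma adjusted p = 0.00690) and Sparc, a collagen-binding glycoprotein, fell (-0.56, limma adjusted p = 0.0117).

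The libraries of KO and KO controls did not overlap for 22 of 29 members (75.9%, against 71% of all genes). Of the 13 tested leptomeningeal markers 6 fell (46.2%, against 20.9% of all genes called lower) and none rose. Among these 6 were Igf2 (-1.32, limma adjusted p = 0.00141) and Ptgds (-1.55, limma adjusted p = 0.00343). Other lists held calls as well: 5 of 7 pyramidal and granule neuron genes rose, and of 5 astrocyte genes 3 rose and 1 fell. Blood and oligodendrocytes each had 2 of 5 genes lower. Of 6 microglial and 6 choroid plexus genes none was called. The part of any of these lists in the lower Fmod, Mgp and Dcn was not tested. Omd, Col8a1, Lamb1, Mgp and Lamb2 were called under each of the 12 alternatives tried. All 12 set mutant tables against control tables, so they cannot part genotype from kind of table. Col23a1 was lost without any one of the 4 libraries (limma adjusted p = 0.0646 to 0.0949), and Fmod without KO replicate 1 (0.0851) or KO control replicate 1 (0.0519). Dcn was lost in 9 and Col15a1 in 6 of the 12, including without KO replicate 2 (0.205 and 0.159) and without KO control replicate 1 (0.106 and 0.263).

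In Y402F against Y402F controls limma called 7 members, 2 higher and 5 lower, which is 24.1% against 32.4% of all genes tested (13% higher and 19.3% lower). Higher again were Omd, 84.9 times the controls (3.86, SE 0.22, limma adjusted p = 6.9e-06), and Col8a1, 6.95 times (1.62, SE 0.23, limma adjusted p = 0.00104). Lower were Col26a1 at 20.3% of the controls (-1.40, SE 0.42, limma adjusted p = 0.0347), Dcn at 48.9% (-1.02, SE 0.23, limma adjusted p = 0.0113) and Lamb2 at 46.1% (-0.96, SE 0.23, limma adjusted p = 0.0131). The authors' lower confidence bound was at 0 in both Y402F controls for Col26a1 (upper bounds 9.40 and 8.37) and in replicate 1 for Lamb2 (upper bound 15.6). These percentages are thus poorly set. Col4a1 was at 53.0% (-0.79, SE 0.19, limma adjusted p = 0.0126) and Lamc1 at 56.2% (-0.70, SE 0.22, limma adjusted p = 0.0408). Col4a2, the partner of Col4a1, was at 1.47 times its controls in Y402F (0.45, limma adjusted p = 0.0758) and 1.48 times in KO (0.46, limma adjusted p = 0.0638), both without a call. Mgp (0.10, SE 0.13) and Fmod (0.53, SE 0.31) had limma adjusted p of 0.590 and 0.220.

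Of the collagen processing genes 3 fell, among them Crtap, a part of the prolyl 3-hydroxylase complex (-1.08, SE 0.28, limma adjusted p = 0.0193), and none rose. Sparc fell as well (-0.80, SE 0.13, limma adjusted p = 0.00268). Of the 13 leptomeningeal markers Igf2 alone was called (-0.91, limma adjusted p = 0.00971), while 4 of the 6 tested choroid plexus genes were lower. Kcnj13 and Kcne2 among these passed the test limit through the Y402F controls (means 4.18 and 3.02), which favoured lower levels in Y402F. In other lists 4 of 7 pyramidal and granule neuron genes were higher. Of 5 blood genes and of 5 oligodendrocyte genes 3 each were called, in both directions. The part of any of these lists was not tested. Libraries did not overlap for 15 of 29 members (51.7%, against 68.6% of all genes). With quantile normalization the split of calls was 3 higher and 4 lower. The call of Lamc1 was lost in 8 and that of Col26a1 in 6 of 12 alternatives, including each removal of 1 library for Col26a1 and each but that of Y402F control replicate 2 for Lamc1. Dcn and Lamb2 were lost without Y402F replicate 1 (limma adjusted p = 0.0923 and 0.0887) and without Y402F control replicate 2 (0.0524 and 0.0742). Col4a1 was lost without Y402F replicate 2 (0.0758) or Y402F control replicate 2 (0.0737). Without Y402F replicate 1 the count was 3, without Y402F control replicate 2 it was 3, and without Y402F replicate 2 it was 4.

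The comparisons of KO and of Y402F with controls share no library, but they share the change from one kind of table to the other. Called in both were Omd and Col8a1 (higher) and Dcn and Lamb2 (lower), with the losses of Dcn and Lamb2 given above. Omd and Col8a1 passed the limit of 1 only through the mutants, so their being tested already favoured higher mutant levels. Col15a1 and Col26a1, each called lower in 1 mutant, had means under 1 in KO and in Y402F and passed it through the controls. The difference of the effects, KO minus KO controls less Y402F minus Y402F controls, called no member by limma, against 0.0309% of all genes tested. At an unadjusted p under 0.05 there were 3 of 29 members and 1680 of 12943 genes. The 3 members were Mgp (-1.36, SE 0.19, limma adjusted p = 0.1), Fmod (-1.86, SE 0.44, limma adjusted p = 0.167) and Col18a1 (-0.81, SE 0.34, limma adjusted p = 0.367). Omd differed by 0.50 (SE 0.31, limma adjusted p = 0.521) and Col8a1 by 0.26 (SE 0.32, limma adjusted p = 0.764). A term for the sex pattern called Fmod (-2.56, limma adjusted p = 0.0468). Each control pair was assigned 1 sex pattern, weakly for the KO controls, so the mutant libraries alone set that term.

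**Figure D4:**
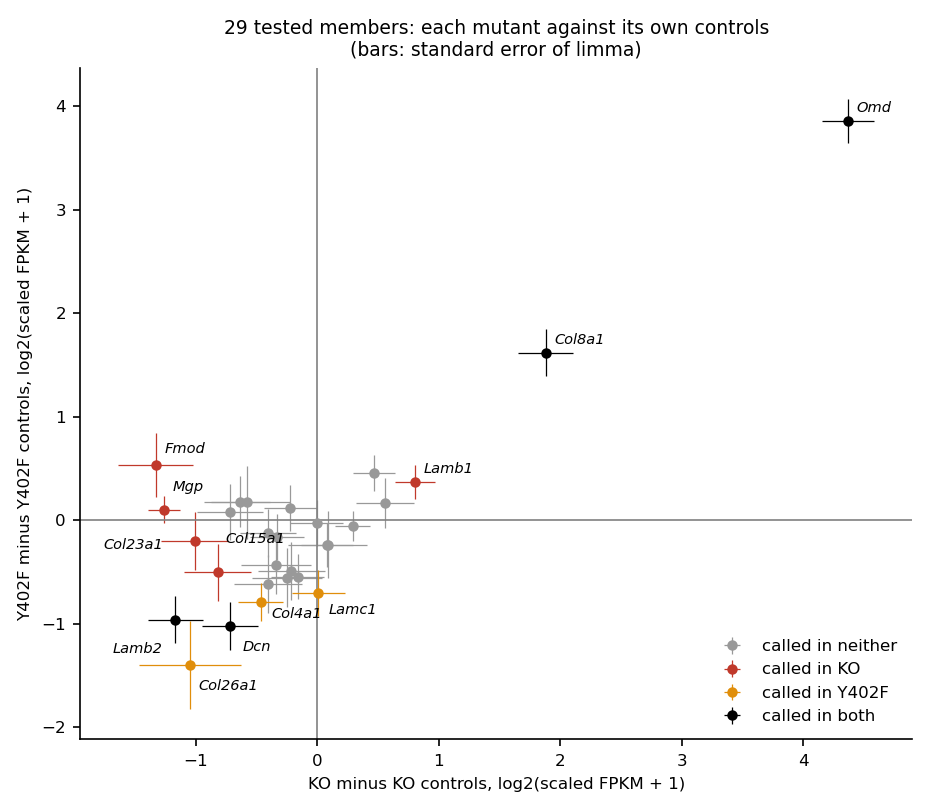
Log2(scaled FPKM + 1) difference of the 29 tested members for KO minus KO controls (x axis) and Y402F minus Y402F controls (y axis), with bars of 1 standard error and colour by limma call. Omd and Col8a1 stood at the upper right, Lamb2 and Dcn at the lower left, and Mgp and Fmod were called on the x axis and not on the y axis.

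Omd and Col8a1 were looked at in the counts behind the mutant values. Expected counts were whole within 0.005 in all 4 mutant libraries for 59 of the 63 members. Omd, Col8a1 and Col4a4 were fractional in all 4, which happens where reads that fit several genes are divided among them. Over all genes listed in a mutant library, 81.1 to 81.7% had whole counts, so fractional counts are not particular to these members. Omd had expected counts of 210.93 and 269.36 in KO and 131.84 and 191.39 in Y402F, and Col8a1 had 105.05 and 80.46 in KO and 121.30 and 93.35 in Y402F.

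Of the 2246 stretches of 50 bases in GENCODE transcripts of Omd, 105 (4.67%) also occur in transcripts of 82 other genes, 100 of them in Vamp3. All 105 lie in bases 354 to 525 of the 2249-base transcript, and the 1556-base transcript has none. The authors' table gives Omd a length of 1751 bases, so whether the counted reads fall there is not known, and their part in its level was not tested. Col8a1 shares 1 stretch of 50 bases with another gene, Wdr89. Omd and Ogn also lie within Cenpp on the opposite strand, with 0 exonic bases shared. Cenpp was at 1.58 to 2.55 scaled FPKM in the mutants and 0.497 to 1.11 in the controls, and was called by limma as higher in KO than in KO controls (0.81, adjusted p = 0.0134) and as higher in Y402F than in its own controls (0.70, adjusted p = 0.0280). Whether counting used strand was not stated in the sources used here, and the part of Cenpp in the level of Omd was not tested.

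The spread between the 2 libraries of a group was described for each member as the ratio of replicate 2 to replicate 1. At 1.5-fold or more between libraries were 6 of 29 members in KO (20.7%, against 10.1% of all genes), 7 in Y402F (24.1%, against 11.4%), 7 in KO controls (24.1%, against 15%) and 8 in Y402F controls (27.6%, against 14.7%). In KO they were Aldh1a2, Col11a2, Col1a2, Col26a1 and Fmod, higher in replicate 2, and Dcn, lower. In Y402F they were Aldh1a2, Col1a1, Col23a1, Col6a2, Fmod and Lamb2, higher in replicate 2, and Col26a1, lower. Many of these members have low levels, and no test was made with 1 library on each side.

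Aldh1a2 and Fmod thus followed replicate 2 in both mutants, and replicate 2 was the library with the male pattern and the higher leptomeningeal sum in each. The rest of the leptomeningeal set did not share a direction. Omd was higher in replicate 2 of both mutants, and Ogn was lower in both (1.36 and 1.12 in KO, 1.94 and 1.45 in Y402F). Dcn, Mgp and Lum were lower in replicate 2 of KO and higher in that of Y402F. In the wild-type pairs Aldh1a2 was higher in the KO controls, which were assigned the female pattern, though weakly, and have the higher leptomeningeal sum. Ptgds made up most of that sum. Over the 13 tested markers the median log2 difference of the wild-type pairs was 0.06. Of these, 8 were higher and 5 lower in KO controls, with none called by limma. The part of sex or of leptomeningeal tissue in the levels of Aldh1a2 and Fmod was not tested.

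**Figure D5:**
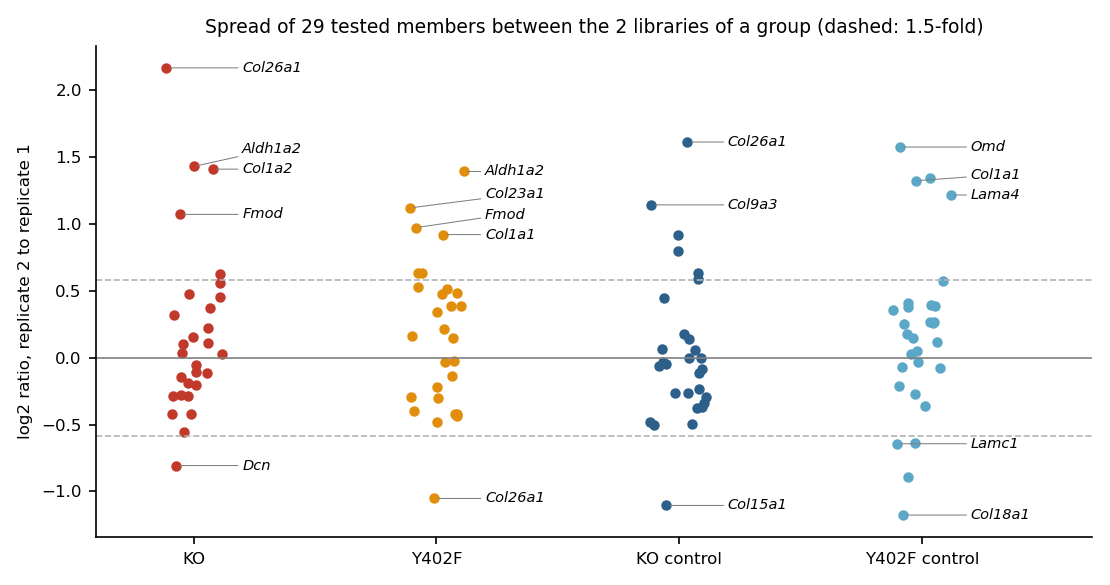
Log2 ratio of replicate 2 to replicate 1 for the 29 tested members within each group (points, spread sideways for visibility; dashed lines, 1.5-fold). Between 6 and 8 members of each group lay outside the dashed lines, with Aldh1a2 and Fmod above them in both mutants.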

How the data were processed

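Hippocampal RNA-seq of 8 libraries was used as deposited. Total RNA was taken up in Trizol, per the labels' protocols. The submitters' processing notes list Bowtie 1, HISAT and mm9 for each sample and, for the wild-type ones, Cufflinks too. For the mutants the authors deposited expected counts, which are estimates of reads per gene, and FPKM, both under Entrez identifiers. For the wild types the deposited values are FPKM with confidence bounds under Ensembl identifiers, without counts, at positions that lie on GRCm38.

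Genes were matched by symbol (17596) or older symbol (58), and all 63 members matched. Genes outside the matched set held 1.10 to 1.27% of the mutant counts and 51.9 to 62.1% of the control FPKM. Scaling used the median of ratios over 11428 genes, and genes with a mean of at least 1 were tested. Unscaled, the median gene differed by -0.12 (log2) between mutants and controls. KO against Y402F was tested with edgeR 4.0.16 (quasi-likelihood, TMM) on expected counts rounded to whole numbers, and the rest with limma 3.58.1 (trend) on log2(scaled FPKM + 1) over all 8 libraries. Calls are at a Benjamini-Hochberg adjusted p under 0.05 over all genes tested. Alternatives were the pseudocount, filter, scaling, trend, a sex term, DESeq2 1.42.0, a replicate block and leaving out each library; the tests were also tried on simulated data. R 4.3.3 and Python 3.11.15 were used.

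The members, lists and tests were chosen with earlier results of these data known. Values by library are given for Fmod, Omd, Ogn, Lum, Dcn, Mgp and Aldh1a2 and for the highest members of each role group (up to 3). Tests are given for these 7 genes within tables, for called members, and for the 3 smallest p where fewer than 3 were called. At most 3 genes of another list are named, by smallest p. The values of 1 member below the test limit are not reported here. Promoter sequences are from RefSeq, with 44 members matched.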

Additional observations from a re-analysis of the deposited data

How the results depend on the processing

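Samples were not paired by replicate number in the main fits. Same-numbered deviations correlated at 0.20 over genes between KO and Y402F, where the number follows the sex pattern in both. For the other pairs of groups the correlation was -0.03 to 0.05. With a replicate block, members called in KO against Y402F went from 0 to 1 (Fmod, edgeR adjusted p = 0.0306), and the block took Dcn (limma adjusted p = 0.0531) from the calls of KO and Lamc1 (0.0546) from those of Y402F against controls; no other call changed. Leaving out 1 library gave 0 to 1 members in KO against Y402F, 0 in the wild-type pairs, 6 to 7 in KO against KO controls, 3 to 6 in Y402F against Y402F controls and 0 for the difference of effects. In the wild-type pairs the count was 0 with no filter, 0 with no trend and 2 with the sex term. The difference of effects had 1 with the sex term. Only the mutant libraries set that term, and the cause of these changes was not tested. Members at 2-fold between libraries numbered 5 in Y402F controls, 3 in KO controls, 4 in KO and 3 in Y402F, or 10.3 to 17.2% against 3.36 to 5.82% of all genes. With a mean of at least 0.1, which takes in more genes, those at 1.5-fold numbered 26 of 56 in Y402F controls and 21 each in KO controls, KO and Y402F, or 37.5 to 46.4% against 20 to 23.5% of all genes. Signs turned for uncalled genes near 0. Aldh1a2 in KO against Y402F was 0.33 without KO replicate 1 and 0.67 without Y402F replicate 2 (range -1.06 to 0.67 without 1 library). In the wild-type pairs Lum was 0.01 with quantile normalization, 0.08 with the sex term and 0.09 without Y402F control replicate 2 (range -0.14 to 0.09 without 1 library); Ogn was -0.13 with the sex term and -0.08 without KO control replicate 1 (range -0.08 to 0.23); Omd was -0.05 without Y402F control replicate 1 (range -0.05 to 0.18). Low counts limit Fmod, Ogn, Lum and Aldh1a2 in the mutants, and the depth of the controls is unknown.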

Other observations

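Receptors of collagen and laminin and genes of matrix turnover were measured as well. Of the 9 tested receptors, 2 (22.2%, against 37.7% of all genes called) rose in KO against KO controls: Itga3, an integrin chain that binds laminin (0.57, SE 0.18, limma adjusted p = 0.0379), and Dag1, which encodes dystroglycan (0.35, SE 0.12, limma adjusted p = 0.0486). In Y402F against Y402F controls 1 receptor fell (11.1%, against 32.4% of all genes called) and none rose. Of the 5 tested turnover genes 1 was called in KO (20%): Timp3, a matrix-bound inhibitor of metalloproteinases, rose (0.40, SE 0.11, limma adjusted p = 0.0252), and none was called in Y402F. These shares lie below those over all genes. KO against Y402F called none of these genes by edgeR, and none of them had an unadjusted p under 0.05 there. In the comparisons with controls genotype and kind of table cannot be told apart.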
